A study of Mus musculus with 8 samples.

Results

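Decorin (Dcn), lumican (Lum), biglycan (Bgn), fibromodulin (Fmod), osteoglycin (Ogn), versican (Vcan), prolargin (Prelp) and asporin (Aspn) encode secreted proteoglycans of the extracellular matrix. These 8 genes, of 22180 named genes on the array, were taken as a listed set and found through the probe sets annotated with that single gene symbol, which gave 11 probe sets of 23521. The list was drawn up with the high level of several of its genes in FGF-ESC already known, so the values in FGF-ESC are given as a description, without a test. The Affymetrix Mouse Gene 2.1 array was used on wild-type C57BL/6J mouse samples of 4 groups, with 2 arrays per group. FGF-ESC and EpiSC are cell lines kept in KODMEM containing 20% KSR, a serum replacement, plus FGF2, on a layer of MEF (mouse embryonic fibroblasts). ESC were kept in DMEM containing 15% FCS plus 2i/LIF (kinase inhibitors and the cytokine LIF), with no MEF. ICM is inner cell mass taken by immunosurgery from E3.5 blastocysts and not cultured. The labels trace all 3 kinds of line to E3.5 embryos, the EpiSC too, and name 1 line for each kind. Removal of the feeders before RNA extraction is not stated in those labels.

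Most of these genes belong to the small leucine-rich proteoglycans, whose curved core protein binds collagen and regulates how fibrils assemble. Decorin, biglycan and asporin form class I, lumican, fibromodulin and prolargin class II, and osteoglycin class III. Decorin and biglycan carry chondroitin or dermatan sulfate chains, and lumican and fibromodulin can carry keratan sulfate. Versican is of another family, the lecticans, large chondroitin sulfate proteoglycans that bind hyaluronan in loose, swelling matrix. Connective tissue fibroblasts are a main source of decorin, lumican and biglycan, while versican is also made by many embryonic tissues.

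The members fell into 4 patterns. Dcn, Lum and Bgn were far higher in FGF-ESC than in any other group, with log2 group means at least 3.88 apart. Prelp, Aspn and Ogn were higher in FGF-ESC by smaller amounts, and Fmod differed little between the groups. The EpiSC values of Vcan lay within the range of its FGF-ESC values, and its ICM values were the lowest. Both FGF-ESC arrays lay above all 6 other arrays for 6 of the 8 members, beside 8.58% of the 13597 tested genes. For 4 members (Dcn, Lum, Bgn and Prelp) they did so by at least 1, beside 1.45% of tested genes. The list was chosen from this contrast, so nothing is read from these shares.

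**Figure D1:**
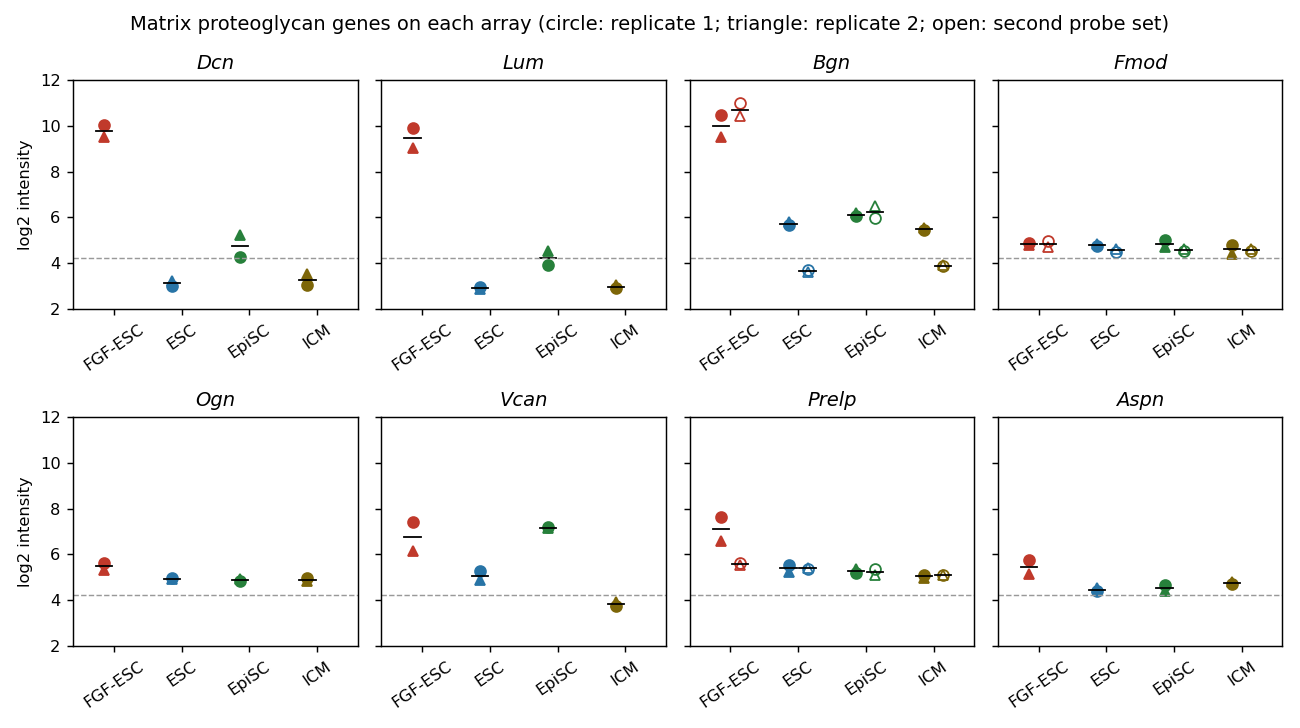
Log2 intensity (vertical axis) of each member gene on each array, by group (horizontal axis). Circles are replicate 1, triangles replicate 2, open symbols a second probe set, and the dashed line is the median of all values, 4.24. For Dcn, Lum and Bgn the FGF-ESC points stand above all others, and for Vcan the EpiSC points lie between the 2 FGF-ESC points.

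The promoter windows of 3 members are shown because they stand for 3 of these patterns: Bgn, high in FGF-ESC on both of its probe sets, Vcan, high in EpiSC, and Aspn, with a small difference. Each window runs from 250 bases before to 50 after the annotated start of the gene, from RefSeq on GRCm38.p6, 5′ to 3′ on the strand of the gene. Windows were present for 6 of the 8 members, not for Dcn and Lum. Capitals mark matches to TATAAA or CCAAT on either strand.
Bgn, chrX:73483351-73483650, plus strand: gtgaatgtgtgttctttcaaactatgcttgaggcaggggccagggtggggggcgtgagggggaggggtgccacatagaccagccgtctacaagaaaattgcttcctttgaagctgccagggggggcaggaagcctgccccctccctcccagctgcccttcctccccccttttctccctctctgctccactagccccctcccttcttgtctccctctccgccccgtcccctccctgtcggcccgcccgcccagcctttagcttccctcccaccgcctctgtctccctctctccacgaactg
Vcan, chr13:89742463-89742762, minus strand: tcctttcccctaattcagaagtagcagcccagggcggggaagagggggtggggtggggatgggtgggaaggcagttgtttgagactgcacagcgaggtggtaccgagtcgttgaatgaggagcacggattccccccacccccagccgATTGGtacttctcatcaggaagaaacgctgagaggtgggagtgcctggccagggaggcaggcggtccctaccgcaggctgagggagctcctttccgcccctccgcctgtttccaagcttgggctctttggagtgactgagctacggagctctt
Aspn, chr13:49544193-49544492, plus strand: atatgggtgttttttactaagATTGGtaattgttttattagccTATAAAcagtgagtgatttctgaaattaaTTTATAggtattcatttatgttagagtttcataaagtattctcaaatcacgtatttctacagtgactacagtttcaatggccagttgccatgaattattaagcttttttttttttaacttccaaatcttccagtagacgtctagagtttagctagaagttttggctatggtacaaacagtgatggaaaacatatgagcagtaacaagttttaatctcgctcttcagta
Their base composition differed widely. GC content was 63.7% for Bgn, 61% for Vcan and 31% for Aspn, beside a median of 52.7% and a 10th to 90th percentile of 39.7% to 69.7% over 32851 promoter windows. Both Bgn and Vcan thus lay above the median and Aspn below the 10th percentile. The letters CCAAT occurred on either strand in 4 of the 6 member windows (Fmod, Vcan, Prelp and Aspn), beside 37.4% of all windows. TATAAA occurred in 2 of the 6 (Ogn and Aspn), beside 13.6%. GGAATG occurred in 1 of the 6 (Ogn), beside 14.7%, and TGANTCA in 0 of the 6, beside 7.81%. These matches are descriptions of the letters in the windows only.

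The naive and primed list means followed the labels in broad terms, with exceptions among single genes. The mean of 8 naive pluripotency markers ran from 7.21 to 7.99 over the FGF-ESC, ESC and ICM arrays and was 4.53 and 4.97 in EpiSC. The mean of 7 primed markers was 6.46 and 6.88 in EpiSC and between 4.17 and 4.62 on the other 6 arrays. In FGF-ESC against ESC, 3 naive markers were called lower in limma and 0 higher, beside 0.934% and 5.27% of all tested genes. The naive marker Nr0b1 was 3.93 in ICM and 8.37 in ESC, and the primed marker Otx2 6.10 in ICM and 5.97 in EpiSC. A trophectoderm list of 8 genes had its highest means on the ICM arrays, 6.09 and 6.10, against 4.89 to 5.29 elsewhere. The FGF-ESC pair was the least alike, with 395 tested genes at least 1 apart between its arrays, where the ESC pair had 0, the EpiSC pair 20 and the ICM pair 80. Whether the 2 arrays of each group represent different cultures or pools of embryos is not stated in the labels. The p-values therefore reflect the spread between these samples alone, and that spread may be technical.

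A fibroblast marker list moved with the members. Its mean over 17 genes with a probe set (Col1a1, Col1a2, Thy1, Postn and others) came to 8.47 and 7.35 for FGF-ESC, 5.49 and 5.66 on the EpiSC arrays, 4.63 and 4.61 on the ESC arrays and 4.64 and 4.77 on the ICM arrays. In limma's moderated test, 14 of 15 tested markers were called higher for FGF-ESC against ESC (5.27% of all tested genes), 13 against EpiSC (5.26%) and 14 against ICM (9.57%). This list too was chosen with earlier results of these data known, so nothing is read from these shares. Of the 14 against ESC, Postn and Prrx1 entered the test through the FGF-ESC arrays alone, and the other 12 did not. The same 2 genes were among the 13 called against EpiSC and the 14 called against ICM. Not called were Pdgfrb against ESC (difference of 1.49), Vim and Twist1 against EpiSC (0.74 and 1.03) and Pdgfra against ICM (-0.51). Fap and Meox1 did not pass the filter, and the Meox1 mean was lowest in FGF-ESC (3.52, with 3.71 to 3.81 elsewhere). Between EpiSC and ESC 4 of the 15 were higher (Col1a2, Mmp2, Vim and S100a4), beside 3.86% of all tested genes. Above 4.24 on both arrays were 15 of the 17 in FGF-ESC, 13 in EpiSC, 10 in ICM and 8 in ESC. Prrx1, a mesenchymal transcription factor, stood at 7.86 and 6.88 in FGF-ESC and at 4.16 and 4.17 in EpiSC. The part of fibroblast RNA in the values of the members was not tested. In such bulk samples fewer cells of a type and less RNA per cell cannot be told apart. Of the other cell-type lists, 0 of 3 tested macrophage, 0 of 2 endothelial and 0 of 4 cartilage and tendon markers were called higher for FGF-ESC against ESC. Of 7 muscle markers 2 were, Acta2 by 2.15 and Tagln by 2.63, while Myod1 and Myog were not called. The macrophage marker Cd68 was called lower than in ESC, with a difference of -1.02, and higher than in EpiSC, by 1.01. Of 6 tested primitive endoderm markers 3 were called against ESC, Dab2 higher by 2.23, Col4a1 higher by 1.33 and Lama1 with a difference of -1.42.

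Among the class I genes, decorin showed one of the widest ranges. Dcn, a collagen-binding proteoglycan that also binds TGF-beta, had values of 10.05 and 9.49 on the FGF-ESC arrays, 3.0 and 3.23 on the ESC arrays, 4.28 and 5.24 on the EpiSC arrays and 3.04 and 3.52 on the ICM arrays. The lower FGF-ESC array was 4.25 above the highest other array, and both EpiSC arrays were above every ESC and ICM array. The FGF-ESC mean of 9.77 ± 0.40 (SD, n = 2) was above the ESC mean by 6.66, the EpiSC mean by 5.01 and the ICM mean by 6.49. The ESC and ICM arrays lay below 4.24, the median of all values on the array.

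Bgn, a proteoglycan of bone and other connective tissue, has a pair of probe sets that differ in how far they separate the groups. Probe set 17542364, which stood for the gene because its mean was higher, had values of 10.48 and 9.53 on the FGF-ESC arrays, 5.66 and 5.80 on the ESC arrays, 6.05 and 6.18 on the EpiSC arrays and 5.46 and 5.52 on the ICM arrays. Probe set 17535558 had values of 10.99 and 10.43 on the FGF-ESC arrays, 3.69 and 3.63 on the ESC arrays, 5.96 and 6.48 on the EpiSC arrays and 3.86 and 3.91 on the ICM arrays. On both, the FGF-ESC arrays were the 2 highest and the EpiSC arrays the next 2. FGF-ESC exceeded ESC by 4.27 on the first and by 7.05 on the second. It exceeded EpiSC by 3.88 and 4.49, and ICM by 4.51 and 6.83.

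Aspn, which inhibits TGF-beta and lacks the usual glycosaminoglycan chains, had values of 5.76 and 5.15 on the FGF-ESC arrays, 4.41 and 4.51 on the ESC arrays, 4.68 and 4.41 on the EpiSC arrays and 4.72 and 4.78 on the ICM arrays. The FGF-ESC arrays were the highest by 0.37 or more, and the arrays of the other 3 groups ran from 4.41 to 4.78. The difference from ESC was 0.99, from EpiSC 0.91 and from ICM 0.70, so Aspn stayed below a difference of 1 in each.

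Of the class II genes, Lum, a keratan sulfate proteoglycan known from the cornea, followed Dcn closely. It had values of 9.88 and 9.02 on the FGF-ESC arrays, 2.97 and 2.87 on the ESC arrays, 3.92 and 4.53 on the EpiSC arrays and 2.90 and 3.03 on the ICM arrays. As for Dcn, both FGF-ESC arrays were highest, both EpiSC arrays next, and the ESC and ICM arrays overlapped. FGF-ESC was higher than ESC by 6.53, than EpiSC by 5.23 and than ICM by 6.49.

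Prelp, which anchors basement membrane to connective tissue, was read by 2 probe sets. Probe set 17227077 had values of 7.61 and 6.58 on the FGF-ESC arrays, 5.55 and 5.24 on the ESC arrays, 5.18 and 5.37 on the EpiSC arrays and 5.10 and 4.98 on the ICM arrays. Probe set 17217369 had values of 5.62 and 5.54 on the FGF-ESC arrays, 5.38 and 5.42 on the ESC arrays, 5.34 and 5.10 on the EpiSC arrays and 5.10 and 5.11 on the ICM arrays. The FGF-ESC arrays were the highest on both, but the difference from ESC was 1.70 on the first and 0.19 on the second. From EpiSC they differed by 1.82 and 0.37, and from ICM by 2.05 and 0.48.

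Fmod, which takes part in collagen fibril assembly in tendon, showed no separation of the groups on the probe set that stood for it. That probe set, 17227083, had values of 4.87 and 4.77 on the FGF-ESC arrays, 4.74 and 4.86 on the ESC arrays, 5.03 and 4.69 on the EpiSC arrays and 4.78 and 4.41 on the ICM arrays. The groups overlapped, and the FGF-ESC mean differed from the ESC mean by 0.03 and from the EpiSC mean by -0.03. On probe set 17217373 the FGF-ESC arrays, 4.97 and 4.69, lay above the others (4.49 to 4.62) and their mean exceeded that of ESC by 0.27.

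Ogn, the class III gene, known as a keratan sulfate proteoglycan of bone and cornea, had values of 5.64 and 5.31 on the FGF-ESC arrays, 4.95 and 4.92 on the ESC arrays, 4.84 and 4.94 on the EpiSC arrays and 4.95 and 4.83 on the ICM arrays. The FGF-ESC arrays were the highest, 0.36 or more above the rest, and the other 6 arrays ran from 4.83 to 4.95. The differences from ESC, EpiSC and ICM were 0.54, 0.59 and 0.58.

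Vcan, the lectican, did not follow this order. It had values of 7.42 and 6.13 on the FGF-ESC arrays, 5.25 and 4.90 on the ESC arrays, 7.20 and 7.13 on the EpiSC arrays and 3.76 and 3.94 on the ICM arrays. The EpiSC arrays fell between the 2 FGF-ESC arrays, which were 1.29 apart, and the ESC and ICM arrays lay below both groups without overlap. The FGF-ESC mean was 1.70 above ESC and 2.92 above ICM, and 0.39 below EpiSC. The SD between replicates was 0.05 in EpiSC and 0.91 in FGF-ESC (n = 2 each).

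**Figure D2:**
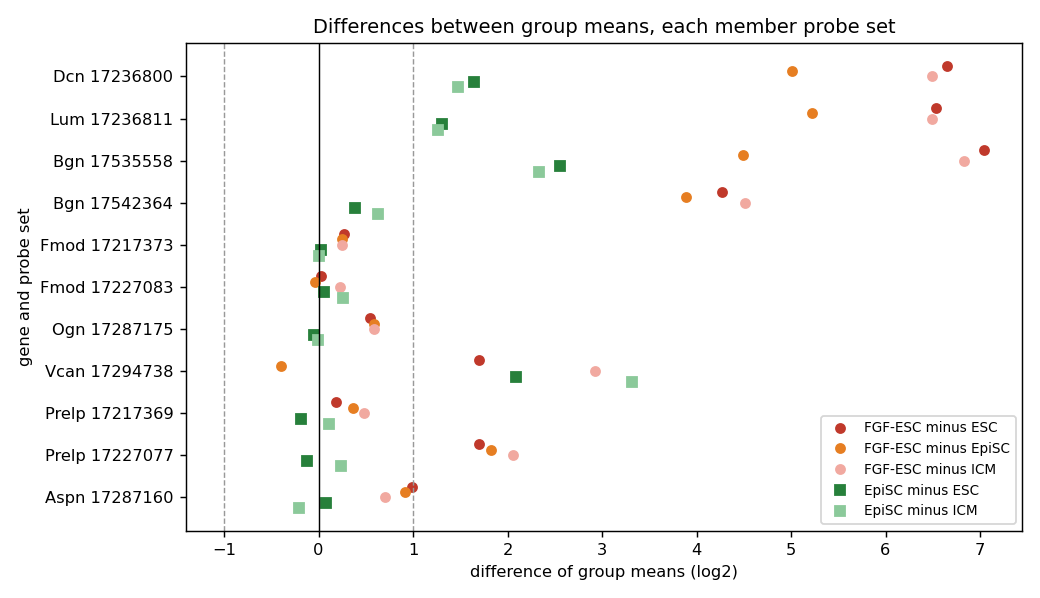
Differences between group means on the log2 scale (horizontal axis) for each member probe set (vertical axis). Circles are comparisons of FGF-ESC and squares comparisons without it. The FGF-ESC differences of Dcn, Lum and Bgn are 3.88 or more, while for Vcan the difference of EpiSC from ICM (3.32) is the largest.

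Counted against a difference of 1 between means, 5 of 8 members stood higher in FGF-ESC than in ESC, beside 5.6% of all tested genes. Against EpiSC the count was 4, beside 5.43%, and against ICM it was 5, beside 9.63%. The median differences over the members were 1.70, 1.36 and 2.49, and the medians over all tested genes -0.06, -0.04 and -0.02. These 3 comparisons share the FGF-ESC arrays.

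The members were tested in comparisons that leave the FGF-ESC arrays out, between EpiSC, ESC and ICM. The fit still took its pooled spread from all 8 arrays, among them the FGF-ESC pair, which was the least alike. The contrasts share arrays with each other, and ESC, EpiSC and ICM also served as the groups FGF-ESC was set against. A gene passed at a Benjamini-Hochberg adjusted p below 0.05 in limma and a difference of at least 1. All 8 members passed the filter on low values, above 4.24 on at least 2 arrays, but Dcn had 2 and Lum 1 array above it outside FGF-ESC, all EpiSC, so the count of members that passed describes these genes only.

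Vcan, the versican gene, was higher in EpiSC than in ESC by 2.09 ± 0.35 (SE; limma adjusted p = 0.00426), a 4.25-fold difference. Dcn was higher by 1.65 ± 0.32 (adjusted p = 0.00907) and Lum by 1.31 ± 0.28 (adjusted p = 0.0141), both higher in 2 of 2 EpiSC arrays than in either ESC array. These 3 of 8 members were called higher, beside 3.86% of all tested genes, and 0 lower, beside 3.5%. Lum entered the test only through the FGF-ESC arrays, and with the filter and fit on the other 6 arrays it was not tested and 2 members were called. Leaving out either ESC array or EpiSC replicate 2 ended the Dcn and Lum calls (adjusted p up to 0.0837 and 0.11), whereas Vcan was called under each setting run (adjusted p up to 0.0494). Over the 4 fits that left out 1 ESC or EpiSC array, 1 to 3 members were called. Fmod (0.06), Ogn (-0.05), Prelp (-0.12) and Aspn (0.08) did not pass, with adjusted p from 0.842 to 0.869. The fibroblast marker Mmp2 was 3.04 higher in EpiSC than in ESC. Col1a2 was 3.43 higher on the probe set that stood for it and differed by 0.43 on its other one, and Vim was 1.83 and 2.46 higher on its pair. EpiSC were kept on MEF in KSR plus FGF2 and ESC without MEF in FCS plus 2i/LIF. Feeder layer, medium and kind of cell therefore cannot be told apart in this comparison, nor in FGF-ESC against ESC. The part of fibroblast RNA in the differences of Vcan, Dcn, Lum and the other members was not tested.

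The result for Bgn rested on the probe set. Probe set 17542364 differed between EpiSC and ESC by 0.39 ± 0.26 (limma adjusted p = 0.373) and did not pass. In a fit with each of 14421 probe sets as its own feature, where 7.61% were called, probe set 17535558 was 2.56 ± 0.22 higher (adjusted p = 0.000129). Against ICM the probe sets gave 0.63 ± 0.26 (adjusted p = 0.0944) and 2.34 ± 0.22 (adjusted p = 8.15e-05), with 15.3% of probe sets called.

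RNA of the ICM was extracted with another column kit than that of the lines, so kit and group cannot be told apart in the ICM comparisons. Against ICM, Vcan was 3.32 ± 0.35 higher in EpiSC (limma adjusted p = 0.000165), a 9.97-fold difference, the largest of any tested member. Dcn was 1.48 ± 0.32 higher (adjusted p = 0.00733) and Lum 1.26 ± 0.28 higher (adjusted p = 0.00845). Again 3 of 8 members were called higher, beside 8.48% of all tested genes, and 2 with the filter and fit on the 6 arrays other than FGF-ESC, where Lum was not tested. Without EpiSC replicate 2 (differences of 0.998 and 0.957) or without ICM replicate 1, Dcn and Lum were no longer called, with limma adjusted p up to 0.0589 and 0.0698.

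Between ESC and ICM, Vcan alone of the 8 members was called, 1.23 ± 0.35 higher in ESC (limma adjusted p = 0.0281), beside 5.82% of tested genes called higher. It was not called when any 1 of the 4 arrays was left out (0 members in each of those fits), with limma adjusted p up to 0.168. The differences of the other members ran from -0.29 for Aspn to 0.35 for Prelp. In rank of group means Vcan thus ran EpiSC, FGF-ESC, ESC and ICM, and the EpiSC and FGF-ESC ranges overlapped. For Dcn and Lum the order was FGF-ESC, EpiSC, ICM and ESC, and the ICM and ESC means did not differ beyond their spread.

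The small leucine-rich proteoglycan genes lie in clusters, which sets members beside one another and beside relatives. In the RefSeq order of assembly GRCm38.p6, Dcn neighbours Lum on chromosome 10, and Lum neighbours Kera, the keratocan gene of the cornea. Kera read 3.92 and 3.72 in FGF-ESC and 3.37 to 3.65 elsewhere, below the median of all values on every array, while Dcn and Lum exceeded 9 in FGF-ESC. On chromosome 13, Aspn lies between Ecm2 and Omd, and Ogn follows Omd, the osteomodulin gene. Omd read between 2.89 and 3.29 and Ecm2 between 3.16 and 3.66 over the 8 arrays, and neither had both FGF-ESC arrays above the others. On chromosome 1 Prelp lies between Optc, the opticin gene, and Fmod. Optc read 4.22 and 4.39 in FGF-ESC and up to 4.99 in EpiSC. Bgn lies apart on the X chromosome. Vcan lies beside Hapln1, the link protein gene, which read 3.03 to 3.32 (chosen after its values were seen).

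Between the FGF-ESC replicates, the members all leaned the same way. Replicate 1 was higher than replicate 2 for 8 of 8 members, beside 46.6% of all tested genes, with a median gap of 0.73 and a range of 0.10 to 1.29. The gap was at least 0.5 for 6 members, beside 10.1% of tested genes, and the median over all tested genes was -0.02. Prelp (1.03) and Vcan (1.29) had the widest gaps on the probe sets that stood for them. The fibroblast list had a median gap of 1.06, and the list of collagens and their fibril partners, which shares Col1a1, Col1a2 and Col3a1 with it, 1.57, while that of 7 shared pluripotency markers was -0.12. The median gap was also 0.66 for the signalling partners, 0.55 for the other proteoglycans and 0.37 for the chondroitin and dermatan sulfate enzymes. It was -0.35 for the naive markers and ran from -0.13 to 0.14 over the remaining lists. The part of fibroblast RNA in the gap of the members was not tested.

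**Figure D3:**
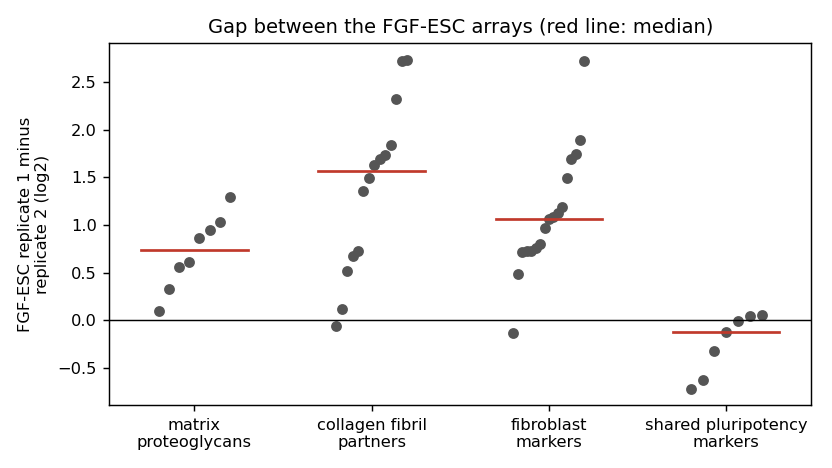
Replicate 1 minus replicate 2 of FGF-ESC on the log2 scale (vertical axis) for the genes of each set (horizontal axis), where each point is a gene and the red line marks the median. All 8 members lie above 0, and the medians of the members, the collagen partners and the fibroblast markers are 0.73, 1.57 and 1.06.

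The other genes of the proteoglycan pathway were taken from function lists with 91 genes, of which 60 were tested. These lists were also chosen with earlier results of these data known, so their counts and shares are descriptions. In FGF-ESC against ESC 16 of the 60 were higher and 0 lower in limma (5.27% and 0.934% of all tested genes), with a median difference of 0.44 against -0.06 for all tested genes. Without FGF-ESC replicate 1 the count was 7, without either ESC array 3, and in a fit of only these groups 3. Against EpiSC 10 of the 60 were higher, beside 5.26% of all tested genes, and 2 in a fit of only those groups, without FGF-ESC replicate 1 or without either EpiSC array. Against ICM 28 were higher, beside 9.57%, and 1 was lower, Sdc4, with a difference of -1.10. Of the 16 higher than ESC, 3 (Cd44, Csgalnact1 and Chst11) lay below 4.24 on every other array and were tested only because of their FGF-ESC values, and the other 13 were not. The same held for 3 of the 10 higher than EpiSC and 5 of the 28 higher than ICM, which were tested only through the FGF-ESC arrays. Against ESC, 10 of 13 genes for collagens and their fibril partners were higher, 3 of them (Lox, and Col5a2 and Col12a1, which are named after their values were seen) tested only through the FGF-ESC arrays. Col1a2, a type I collagen chain, was 6.72 ± 0.23 higher (limma adjusted p = 5.43e-06) on the probe set that stood for it and 3.49 higher on its other one. Tnc, the tenascin C gene, was 5.58 ± 0.51 higher (adjusted p = 0.000499). Lox, which cross-links collagen, was 3.94 ± 0.20 higher (adjusted p = 3.09e-05), and the fits without an FGF-ESC array did not test it. The list of small leucine-rich relatives that are not members had 3 of its 11 genes tested, and 0 passed in either direction.

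The hyaluronan side of the pathway, which versican binds, had 6 tested genes. In FGF-ESC against ESC 3 of the 6 rose, beside 5.27% of all tested genes. Against EpiSC only 1 did, Cd44, beside 5.26%. Cd44, the hyaluronan receptor, rose by 2.76 ± 0.39 (SE; limma adjusted p = 0.00341). It entered the test through its FGF-ESC values alone, and the fits without an FGF-ESC array did not test it. Has2, a hyaluronan synthase, rose by 2.13 ± 0.53 (adjusted p = 0.0324) and Tnfaip6, a hyaluronan-binding protein, by 1.02 ± 0.24 (adjusted p = 0.0279). Both of these lost their call when either ESC array was left out. Without FGF-ESC replicate 1 the Tnfaip6 difference was 0.58. Tnfaip6 was 4.81 and 4.86 in EpiSC, where it was also called higher than in ESC, and 5.25 and 4.39 in FGF-ESC. Has2 was 5.69 and 5.44 in EpiSC and 7.36 and 5.31 in FGF-ESC.

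Among the enzymes that build the sugar chains, 4 of 16 tested chondroitin and dermatan sulfate genes rose in FGF-ESC against ESC, beside 5.27% of all tested genes. Csgalnact1, which starts and extends chondroitin chains, rose by 1.39 ± 0.24 (limma adjusted p = 0.00826), Dsel, a dermatan sulfate epimerase-like enzyme, by 1.32 ± 0.29 (adjusted p = 0.0204) and Chst11, a chondroitin 4-sulfotransferase, by 1.25 ± 0.24 (adjusted p = 0.0135). B4galt1, a galactosyltransferase, was the 1 of 6 keratan genes to pass (beside the same 5.27%), with 1.35 ± 0.29 (adjusted p = 0.019). All 4 lost their call when either ESC array was left out, and Csgalnact1 and Chst11 entered the test through the FGF-ESC arrays alone. Without FGF-ESC replicate 1 the differences of Dsel and B4galt1 were 0.80 and 0.82, below the minimum of 1. Against EpiSC, FGF-ESC had 1 of the 16 chondroitin genes higher, Csgalnact1, and 1 of the 6 keratan genes, B4galt1, beside 5.26% of all tested genes. B4galt1 lost that call in a fit of only those groups. Dsel and Chst11 differed from EpiSC by -0.12 and 0.77 and did not pass. Between EpiSC and ESC, 2 of the 16 chondroitin genes rose, beside 3.86% of all tested genes. These were Dsel, by 1.44 ± 0.29 (limma adjusted p = 0.01), and Chsy1, chondroitin synthase, by 1.15 ± 0.20 (adjusted p = 0.00457). Dsel lost this call without any 1 of the 4 arrays compared, and Chsy1 without ESC replicate 1. A second Chsy1 probe set was 1.04 higher in EpiSC than in ESC.

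Of the proteases that cut the core proteins, 2 of 4 tested genes rose in FGF-ESC against ESC, beside 5.27% of all. Against EpiSC 1 of the 4 did, Bmp1, beside 5.26%, and it lost that call in a fit of only those groups. Against ESC, Bmp1, which processes the biglycan precursor, rose by 3.30 ± 0.46 (limma adjusted p = 0.00333) and kept its call under every setting run. Adamts1, which cleaves versican, rose by 1.51 ± 0.34 (adjusted p = 0.0219) and lost its call without FGF-ESC replicate 1 or either ESC array.

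Of 10 tested signalling partners 2 rose in FGF-ESC against ESC, beside 5.27% of all tested genes. These were Lrp1, the receptor that takes up decorin, by 2.61 ± 0.44 (limma adjusted p = 0.0076) and Tgfbr2, the type II TGF-beta receptor, by 1.55 ± 0.38 (adjusted p = 0.0314). Among other proteoglycans 4 of 15 rose, beside the same 5.27%, with Tgfbr3 (betaglycan) at 1.88 ± 0.35, Sdc3 (a syndecan) at 1.80 ± 0.32 and Gpc1 (a glypican) at 1.49 ± 0.26. A second Gpc1 probe set differed by 0.24. The calls of Lrp1, Tgfbr2, Tgfbr3, Sdc3 and Gpc1 were lost when either ESC array was left out. Without FGF-ESC replicate 1 the Tgfbr2 difference was 0.83, below the minimum of 1. Against EpiSC, FGF-ESC had 3 of the 10 signalling partners higher (Lrp1, Tgfbr2 and Egfr), beside 5.26% of all tested genes. Of the 15 other proteoglycans 3 were higher there (Tgfbr3, Sdc3 and Hspg2), beside the same 5.26%. All of these lost that call in a fit of only those groups, and Egfr entered the test through the FGF-ESC arrays alone. Between EpiSC and ESC, 5 of the 60 pathway genes rose (8.33% against 3.86% of all tested genes) and 0 fell, with a median of 0.17. That count was 0 without ESC replicate 1, 3 without ESC replicate 2, 2 without EpiSC replicate 1 and 1 without EpiSC replicate 2.

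**Figure D4:**
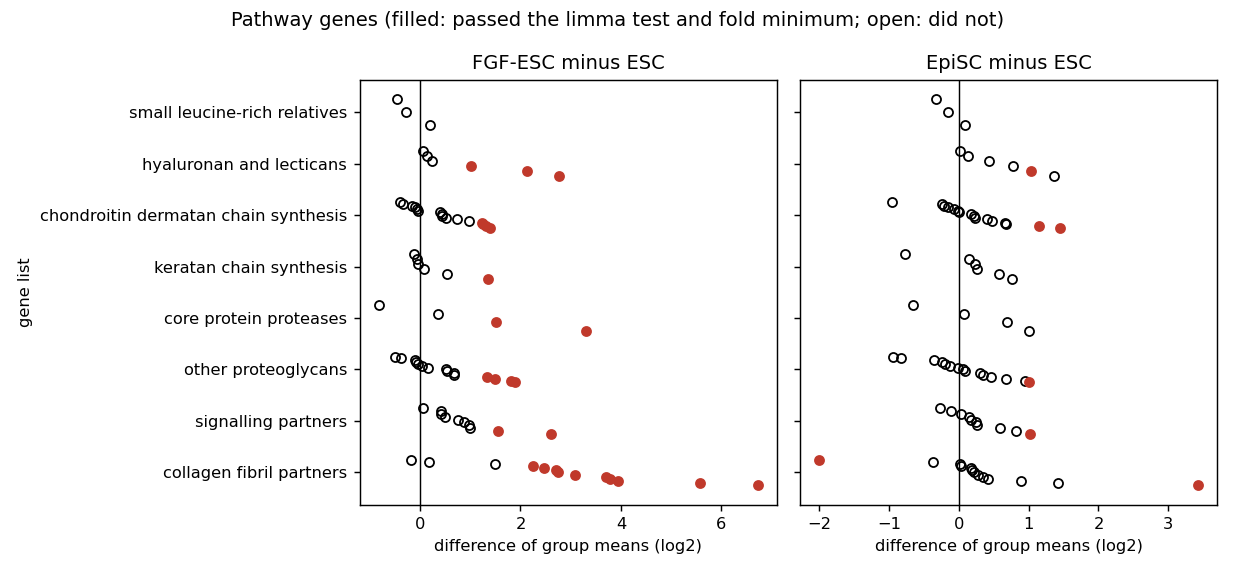
Differences between group means on the log2 scale (horizontal axis) for the tested genes of each pathway list (vertical axis), in panels by comparison, on 1 probe set per gene. Filled points passed the limma test and the fold minimum, open points did not. The collagen list holds the points farthest to the right in FGF-ESC against ESC, with 10 of 13 passing.

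The genes most like the members' mean profile, by Pearson correlation over the 8 arrays and among genes with a range of at least 2, were Timp2 (r = 0.996), Ccl7 (0.996), Loxl3 (0.996), Fam114a1 (0.994) and Tnc (0.993). Timp2 inhibits matrix metalloproteinases, Ccl7 is a chemokine, and Loxl3 and Tnc are a collagen cross-linking enzyme and tenascin C. All 5 were high on the FGF-ESC arrays, which stand apart from the other 6, and all genes share the same arrays, so these values describe likeness only. For Vcan, likened after its values were seen, the closest were Mfap2 (0.991), Spred1 (0.987), Clip3 (0.986), Sox4 (0.985) and Chsy1 (0.985), and Chsy1 is among the chain synthesis genes named above.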

How the data were processed

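The values used were those the authors deposited, log2 intensities per probe set and array, for which the submitters' processing notes name Affymetrix Expression Console 1.3.1. The summarisation method, background correction and genome build were not given in the sources used here. A log2 scale was read from the values (about 1.63 to 12.2). Of 41345 probe sets, 23521 had 1 gene in the platform annotation, 1814 several and 16010 none. A gene's probe set with the highest mean over the 8 arrays stood for it, and other probe sets of the members, Col1a2, Vim, Chsy1 and Gpc1 are given beside it. A gene entered the tests, 13597 in all, if 2 or more arrays exceeded 4.24, the median of all values. R 4.3.3 and limma 3.58.1 were used to fit the 4 group means over all 8 arrays, with 4 residual degrees of freedom, eBayes, and Benjamini-Hochberg adjustment within each comparison. A gene was called at an adjusted p below 0.05 and a difference of at least 1. The code was tested on simulated data. FGF-ESC comparisons of the members were not tested, because the members were chosen from them. The members and gene lists were chosen with earlier results of these data known. Named genes are the members, up to 3 called genes with the largest difference in each pathway list, member neighbours among the proteoglycan relatives, and the 5 genes most like the mean member profile. Alternatives tried were quantile normalization, median centring, other filters, the probe set with the largest variance and an intensity trend. A fit of only the groups compared, a replicate block and leaving out each array of the groups compared were also tried. RNA was extracted with NucleoSpin II for the lines and NucleoSpin XS for ICM, per the labels' protocols, so that kit and ICM cannot be told apart. The number of arrays limits the precision.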

Additional observations from a re-analysis of the deposited data

How the results depend on the processing

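Of 78 named results that passed, 42 passed under every setting that tested them (a gene below the filter in a setting has no value there), and 15 of 17 that did not pass kept that under every setting. In each comparison the 4 arrays of the groups compared were left out in turn, and the other arrays were kept. The member calls lost in this way are given above. With 1 such array left out, 5 to 6, 4 to 5 and 5 to 6 members were at least 1 higher in FGF-ESC than in ESC, EpiSC and ICM. The pathway genes higher in FGF-ESC than in ESC ranged from 3 to 19 and those lower from 0 to 1. Against EpiSC they ranged from 2 to 12 and 0 to 1, and for EpiSC against ESC from 0 to 3 and 0 to 1. A fit of only the groups compared gave 3 genes higher than ESC and 2 higher than EpiSC, and a filter 1 above the median gave 3 for EpiSC against ESC; the cause was not tested. Signs turned only for differences that did not pass. For EpiSC against ESC, the lowest and highest values without 1 array were -0.11 and 0.23 for Fmod, -0.098 and 0.0036 for Ogn, -0.27 and 0.035 for Prelp, and -0.055 and 0.22 for Aspn. For EpiSC against ICM, Ogn ran from -0.065 to 0.056. For ESC against ICM, Dcn ran from -0.41 to 0.075, Lum from -0.11 to 0.021 and Ogn from -0.018 to 0.10. Ogn was -0.015 after quantile normalization, and Bgn -0.22 on the probe set with the largest variance. With that probe set 4 members were called in EpiSC against ESC and against ICM. No share of all tested genes is given for the alternative settings, so their counts describe the members only. In a fit without the FGF-ESC arrays, added after seeing the data, 2 members were called in both, since Lum was then not tested.

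Replicate differences were little correlated between groups, with correlations between -0.0864 and 0.0421. These values cannot show whether samples with the same replicate number were handled together. With the replicate number as a block 3, 3 and 1 members were called in EpiSC against ESC, EpiSC against ICM and ESC against ICM, and the pathway genes higher in FGF-ESC numbered 16 against ESC and 9 against EpiSC.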
